A study of Mus musculus with 9 samples.

Results

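L1Md_Gf is a young subfamily of LINE-1, and its members here were the copies whose repeat name in the table of single transposable element (TE) copies is L1Md_Gf. There were 474 such copies among 623916 copies of all names. RNA was sequenced in 9 libraries of mouse embryonic stem cells (ESCs), cultured cells of the early embryo that renew themselves, all on the C57BL/6 strain, at early passage and with feeder cells removed. The groups were G4 Terc-/- ESCs, G1 Terc-/- ESCs and WT ESCs, with 3 libraries each. Both Terc-/- groups lack the RNA template of telomerase, and per the study's methods the G4 ESCs came from embryos of third-generation Terc-/- parents and the G1 ESCs from heterozygous parents. How many cell lines stand behind a group is not in the labels, so generation and cell line cannot be told apart. The replicate number in the methods also differs from that in the labels, so a p-value here speaks of the spread from library to library, which may be technical.

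LINE-1 elements copy themselves through RNA. A full-length copy begins with an internal promoter, followed by the reading frames of an RNA-binding protein (ORF1p) and of a protein with endonuclease and reverse transcriptase activity (ORF2p), and it inserts by reverse transcription at a nick in the target DNA. In the mouse the young subfamilies are named after their promoter repeats, with A, Gf and Tf types still able to move, and in ESCs they are held down by DNA methylation, by H3K9 methylation and by the HUSH complex.

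The copies were between 82 and 6540 bp long with a median of 3896.5 bp, 292 on the plus and 182 on the minus strand. No genome sequence was used here. A stretch of one copy is held by an annotated GENCODE transcript, Ces5a-202, whose first exon lies inside the L1Md_Gf copy chr8:93505743-93511032 on the opposite strand. It is shown, on the strand of the copy (chr8:93506404-93506703, mm10, plus strand), because it shows part of an open reading frame that a long L1Md_Gf copy carries.
L1Md_Gf_8_93505743: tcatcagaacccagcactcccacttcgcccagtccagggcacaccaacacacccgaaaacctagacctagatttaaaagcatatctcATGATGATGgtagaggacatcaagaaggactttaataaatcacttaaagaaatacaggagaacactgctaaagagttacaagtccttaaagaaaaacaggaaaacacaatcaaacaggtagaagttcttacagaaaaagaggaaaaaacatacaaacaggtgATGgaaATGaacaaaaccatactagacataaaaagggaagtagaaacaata
The capitals mark the ATG codons of the only frame without a stop codon over the 367 bases of the exon. This frame runs through all 100 codons shown and holds 5 ATG codons, whereas the other frames of the exon hold 16 and 6 stop codons. The stretch begins 662 bases from the 5′ end of the copy. The copy itself had only 1.75 counts over the 9 libraries.

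The libraries totalled between 918879 and 1137257 estimated counts, with a median of 992072. L1Md_Gf held 0.0653%, 0.0543% and 0.0599% of them in G4 libraries, 0.101%, 0.101% and 0.103% in G1 libraries, and 0.0727%, 0.0859% and 0.0859% in WT libraries. These are 600, 571 and 643 counts in G4, 961, 1149 and 965 in G1, and 721, 811 and 915 in WT. In 367 L1Md_Gf copies, 77.4% of all and with 94.5% of the counts, the value was not whole in at least 1 library, so reads had been divided between copies, and copies of the subfamily are not independent of each other. Whether reads were also divided between L1Md_Gf and other names cannot be told. The young LINE-1 name L1Md_T had 222699 counts, 96.6% of them in copies with values that were not whole. Levels of L1Md_Gf and of such names may therefore not be independent either. Terc could not be read, since the table holds TE copies and no genes. Genes were read only through TE copies in their exons, and so were the cell types. The 6 of 12 ESC markers with exonic copies summed to 23091 to 28560 CPM (counts scaled to a common total of TE counts) in G4, 10843 to 11796 in G1 and 6944 to 7552 in WT. Most of this came from Tdgf1, with means of 16534, 6679 and 4328 CPM in G4, G1 and WT. Nanog, Tfcp2l1, Esrrb and Tdgf1 were each highest in G4. Lin28a was not, with 413, 487 and 441 CPM in G4, 489.5, 447 and 433.5 in G1, and 510, 504 and 498 in WT. Zfp42 had at most 10 counts in any library. The primitive endoderm gene Gata4, a transcription factor of the extraembryonic layer, had 12, 28 and 22 counts in G4, 304, 356 and 334 in G1, and 666, 737 and 796 in WT. The 5 of 10 primitive endoderm markers with exonic copies summed to 27.2 to 41.9 CPM in G4, 436 to 473 in G1 and 995 to 1069 in WT, with Dab2 at 0 in every G4 and G1 library. The 3 of 10 feeder fibroblast markers with exonic copies summed to 82.7 to 96.9, 61.0 to 81.0 and 33.9 to 52.6 CPM in G4, G1 and WT, nearly all from Col1a1, and Dcn was at 0 in every G4 and G1 library. The 3 of 8 markers of 2-cell-like cells with exonic copies summed to 13.0 to 27.6, 0 to 1.05 and 0 to 2.12 CPM in G4, G1 and WT. The part of these cell types in the results below was not tested, and in bulk RNA fewer cells of a type and less RNA per cell cannot be told apart.

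Summed over its copies, L1Md_Gf was lowest in G4 Terc-/- ESCs and highest in G1 Terc-/- ESCs. It had 597, 519 and 564 CPM in the G4 libraries, 1053, 1047 and 1065 CPM in the G1 libraries, and 748, 893 and 877 CPM in the WT libraries, where CPM are scaled by the TMM method. Library totals here are totals of TE counts, so these are levels relative to other TE copies. A change shared by all TE RNA would not show, with TMM or with plain library totals. No library of one group overlapped those of another. The means were 560 ± 39.2 CPM in G4, 1055 ± 9.44 CPM in G1 and 839 ± 79.4 CPM in WT (SD, n = 3 each). In edgeR's quasi-likelihood test over all repeat names with Benjamini-Hochberg adjustment, L1Md_Gf fell in G4 against WT by 0.58 on the log2 scale (SE 0.0714, adjusted p = 9.58e-07). It fell in G4 against G1 by 0.91 (SE 0.0701, adjusted p = 1.24e-09). In G1 against WT it rose by 0.33 (SE 0.0681, adjusted p = 0.00294). Summed over only the 107 copies with whole values, which held 5.47% of the counts, it stood at 0.20 in G4 against WT (adjusted p = 0.531), -0.37 in G4 against G1 (adjusted p = 0.215) and 0.57 in G1 against WT (adjusted p = 0.177). The study itself reports L1Md_Gf as higher than WT where ESC telomeres were shorter, the opposite direction to G4 here. Its methods align reads to consensus sequences, a measure unlike sums over single copies, and the libraries may differ too.

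These calls are read against many others. Of 853 repeat names tested, 23.4% were lower and 23.1% higher in G4 against WT at an adjusted p under 0.05, and 23.0% were lower and 19.5% higher in G4 against G1. The shares were 5.51% higher and 6.33% lower in G1 against WT. Among the 853 names the log2 fold change of L1Md_Gf was the 99th lowest in G4 against WT, the 34th lowest in G4 against G1 and the 91st highest in G1 against WT. The median of all names was 0.00 in G4 against WT with TMM scaling. With plain library totals it was 0.14, where L1Md_Gf stood at -0.45, and 67.8% of the calls were then higher, against 49.6% with TMM.

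**Figure D1:**
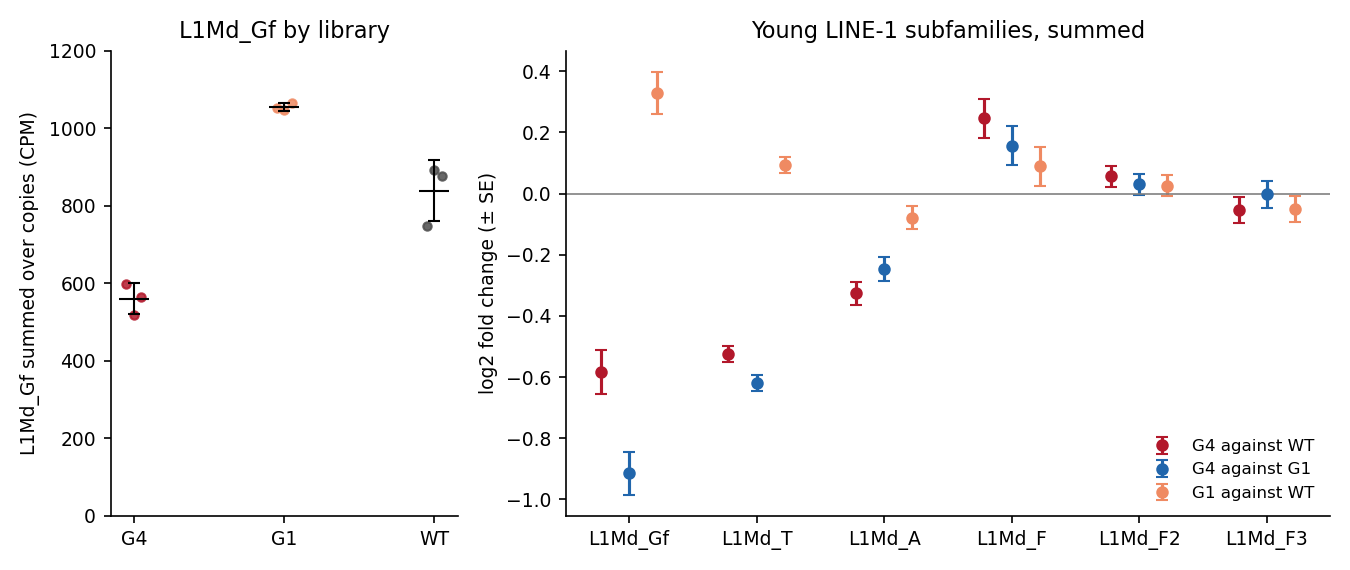
Left, CPM of L1Md_Gf summed over its copies in each library (points), with the mean and SD (bars) of G4, G1 and WT. Right, log2 fold change with its SE for L1Md_Gf and the other 5 young LINE-1 names in each comparison, where L1Md_Gf stood at -0.58, -0.91 and 0.33.

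The other young LINE-1 names did not all move alike. L1Md_T, which holds the Tf type, fell in G4 against WT by 0.53 (adjusted p = 1.15e-12) and L1Md_A fell by 0.33 (adjusted p = 4.82e-07). L1Md_F, an older promoter type, rose by 0.25 (adjusted p = 0.00305). L1Md_F2 and L1Md_F3 stood at 0.06 and -0.05 and did not pass the test. In G4 against G1, L1Md_T fell by 0.62 (adjusted p = 6.35e-14) and L1Md_A by 0.25 (adjusted p = 2.57e-05). In G1 against WT, L1Md_T rose by 0.09 (adjusted p = 0.0272), and L1Md_A stood at -0.08 (adjusted p = 0.208). Of these 5 names, 1 rose and 2 fell in G4 against WT, with a median of -0.05. Of 29 older LINE-1 names (the L1_Mus, L1_Mm, L1VL and Lx groups), 10 rose and 2 fell in G4 against WT, with a median of 0.06.

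Per length, L1Md_Gf stood between the Tf and A types. Its level was 0.360 CPM per kb of annotated copy in G4, 0.678 in G1 and 0.540 in WT. L1Md_T stood at 0.501, 0.770 and 0.722, and L1Md_A at 0.139, 0.165 and 0.175 CPM per kb. The ratio of L1Md_Gf to each of them, which may share reads with it, was then compared within libraries. The log2 ratio to L1Md_T was -4.96, -5.17 and -5.06 in G4 and -5.16, -4.93 and -4.93 in WT. The groups overlapped (difference -0.06, exact permutation test, two-sided p = 0.5, adjusted p = 0.5 over 3 ratios). To L1Md_A the ratio differed by -0.25 between G4 and WT (exact p = 0.2, adjusted p = 0.3). To L1Md_F, F2 and F3 together it differed by -0.63, with no overlap between the groups (exact p = 0.1, adjusted p = 0.3). With 3 libraries against 3 the smallest possible exact p is 0.1. In G1 the log2 ratio of L1Md_Gf to L1Md_T was -4.75, -4.81 and -4.73, above all G4 and all WT libraries. The difference of G4 from G1 was -0.30 for the ratio to L1Md_T, -0.67 to L1Md_A and -0.95 to L1Md_F, F2 and F3 together, and that of G1 from WT was 0.24, 0.42 and 0.32 (exact p = 0.1, adjusted p = 0.1 in each).

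Counts were spread unevenly over the copies. The most counted copy held 9.01% of all L1Md_Gf counts, the 6 most counted 27.0% and the 50 most counted 68.4%. At the other end, 281 of the 474 copies had fewer than 5 counts over all 9 libraries and together 5.12% of the counts. In a G4 library 136 to 149 copies had at least 1 count, in a G1 library 159 to 183 and in a WT library 137 to 160. The 6 most counted copies held 22.9%, 19.7% and 23.8% of the subfamily's counts in G4, 29.6%, 27.3% and 28.8% in G1, and 28.3%, 25.2% and 32.2% in WT. Their share was lower in every G4 library than in any other library. These 6 were chosen by their counts over all 9 libraries, to which G1 and WT gave more than G4. The choice thus favours copies that are low in G4, and the difference in share was not tested. The remaining 468 copies nevertheless summed to 461, 417 and 430 CPM in G4, 741, 761 and 759 in G1, and 536, 667 and 594 in WT, again without overlap.

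**Figure D2:**
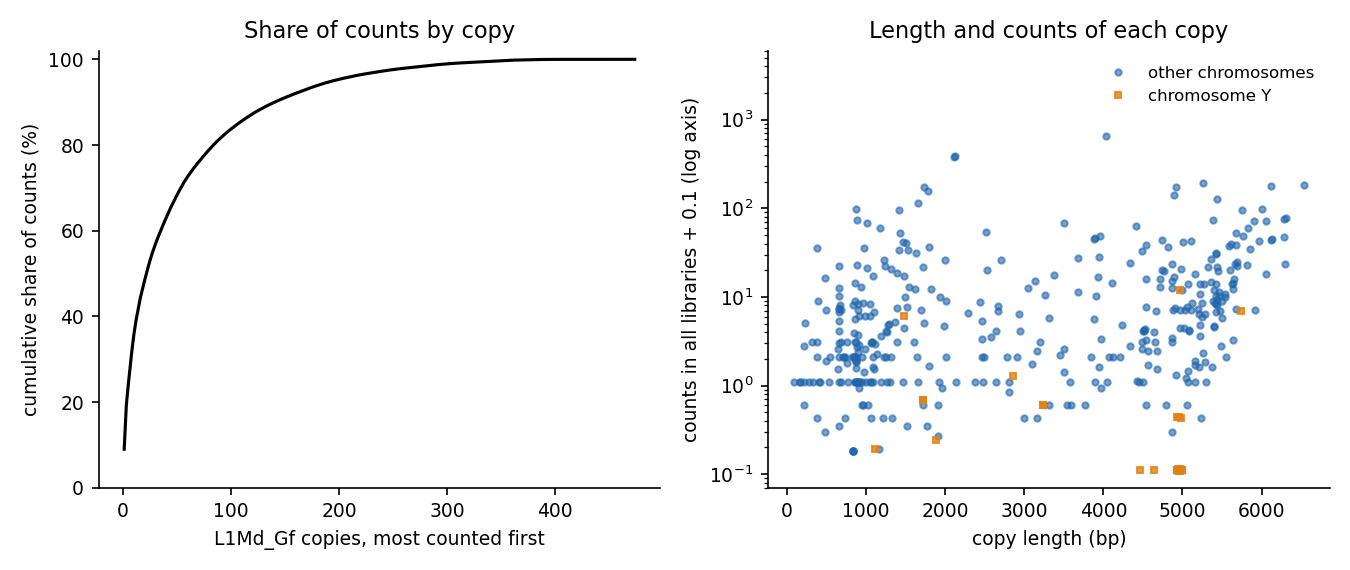
Left, cumulative share of L1Md_Gf counts over the 474 copies, most counted first, where the first 50 reach 68.4%. Right, length of each copy in bp against its counts in all libraries plus 0.1 on a log axis, with the 86 copies of chromosome Y as squares, most of them near 5000 bp and at almost no counts.

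L1Md_Gf was lower in G4 in each class of copy length. Only long copies can hold a promoter together with both reading frames. The 98 copies of 5000 bp or more held 34.8% of the counts. They had 203, 171 and 211 CPM in G4, 340, 399 and 355 CPM in G1, and 268, 297 and 312 CPM in WT. The 277 copies of 1000 to under 5000 bp had 339, 314 and 308 CPM in G4, 631, 560 and 604 in G1, and 413, 536 and 511 in WT. The 99 copies under 1000 bp had 51.5, 36.5 and 47.6 CPM in G4, 86.8, 81.5 and 96.1 in G1, and 68.7, 65.3 and 56.7 in WT. Thus G4 libraries lay below the others in every class. Since reads were divided between copies, classes of length, position and divergence may share reads and are not independent of each other. In G4 against WT the edgeR log2 fold changes were -0.59 for the long class (adjusted p = 5.77e-05), -0.60 for the middle class (adjusted p = 1.2e-05) and -0.49 for the short class (adjusted p = 0.0244). Of 1044 sums of a name and length class, 23.6% were lower in that comparison. Against G1, where 20.6% of such sums were lower, the falls in G4 were 0.91, 0.90 and 0.96 for the long, middle and short class, with adjusted p of 1.59e-07, 4.01e-08 and 6.72e-05. The short class lost its call without WT replicate 1 (-0.44, adjusted p = 0.0825), without WT replicate 2 (-0.48, adjusted p = 0.056) and without G4 replicate 2 (-0.36, adjusted p = 0.125). With a limit of 6000 bp only 11 copies were long, and these stood at -0.31 (adjusted p = 0.0612).

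The long class rose in G1 against WT by 0.32 (adjusted p = 0.0293) and the middle class by 0.30 (adjusted p = 0.0282), where 5.46% of such sums rose. Both calls were lost in some fits without 1 library, as given in the closing section. The short class stood at 0.47 (adjusted p = 0.0583). The share of L1Md_Gf counts in copies of 5000 bp or more was 34.1%, 32.7% and 37.1% in G4, 32.1%, 38.4% and 33.6% in G1, and 35.7%, 33.1% and 35.5% in WT. The groups overlapped, with differences in mean of -0.11, -0.06 and -0.05 percentage points for G4 against WT, G4 against G1 and G1 against WT (exact permutation test, two-sided, p = 1.0 in each). With a limit of 6000 bp the share was 12.6%, 15.3% and 13.5% in G4, 9.70%, 11.6% and 11.1% in G1, and 12.7%, 10.2% and 11.4% in WT. G4 then lay above G1 without overlap, by 2.98 percentage points in the mean, and overlapped WT. Counts per kb were 4.75 in the long class, 4.43 in the middle class and 8.34 in the short class.

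By position, 322 copies lay over 5000 bp from any annotated gene, 104 lay in introns, 47 lay within 5000 bp of a gene and 1 lay in an exon. Copies far from genes had 281, 251 and 244 CPM in G4, 545, 500 and 468 in G1, and 362, 433 and 444 in WT. They fell in G4 against WT by 0.68 (SE 0.103, adjusted p = 1.63e-06). Intronic copies had 233, 175 and 216 CPM in G4, 324, 364 and 368 in G1, and 254, 269 and 308 in WT. They fell by 0.42 (SE 0.114, adjusted p = 0.00378), a call that was lost with plain library totals (-0.26, adjusted p = 0.0804). Copies near genes had 76.9, 95.0 and 106 CPM in G4, 180, 167 and 207 in G1, and 137, 208 and 133 in WT, and fell by 0.77 (SE 0.158, adjusted p = 0.000187). Of 2171 sums of a name and position class, 18.0% were lower in G4 against WT. Against G1, where 14.8% of such sums were lower, the falls in G4 were 0.96 for far, 0.76 for intronic and 0.99 for near copies (adjusted p = 1.12e-09, 1.1e-06 and 3.78e-06). In G1 against WT, where 2.53% of such sums rose, none of these 3 classes passed the edgeR test (far 0.29, adjusted p = 0.0742, intronic 0.35, adjusted p = 0.0523, near 0.22, adjusted p = 0.467).

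The kit used does not mark strand, so RNA of an intronic copy cannot be told from unspliced RNA of its host gene. The 47 intronic copies on the strand of their host had 133 ± 11.2 CPM in G4, 237 ± 39.2 in G1 and 174 ± 37.9 in WT (SD, n = 3 each). The 55 on the opposite strand had 74.8 ± 20.8, 118 ± 19.05 and 99.3 ± 15.5 CPM in G4, G1 and WT. Per kb, the intronic class held 8.99 counts, against 3.09 for copies far from genes. The exonic copy, chr9:57407997-57408907, lies whole in an exon of Ppcdc, an enzyme of coenzyme A synthesis, and had 2, 0 and 1 counts in G4, 0, 1 and 2 in G1, and 0 in every WT library. It was too rare to be tested.

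**Figure D3:**
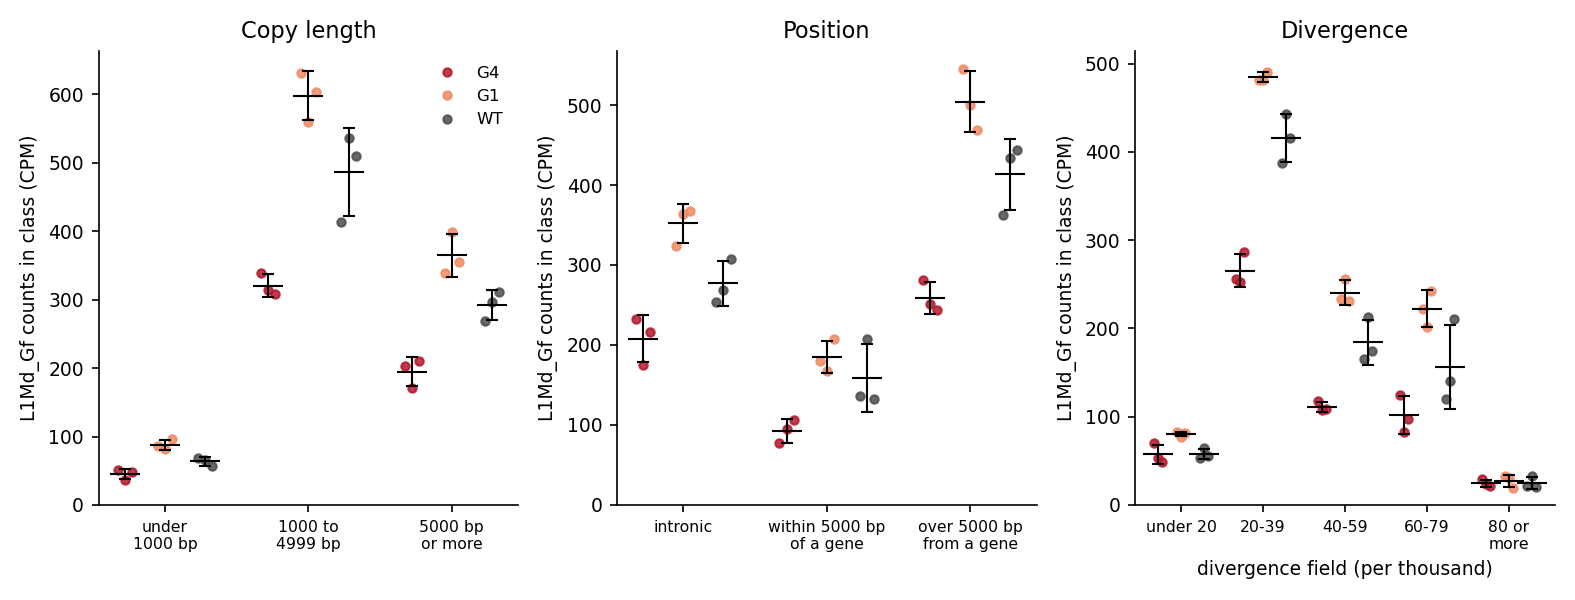
CPM of L1Md_Gf copies in each library (points), with mean and SD, by copy length, by position and by the divergence field of the repeat annotation. G4 lies below G1 and WT in every length class and for divergence of 20 to 59 per kb. At 60 to 79 G4 replicate 1 overlaps WT replicate 1, and the groups overlap at 80 or more, where all 9 libraries lie between 19.2 and 32.9 CPM.

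The fifth field of a copy's name was taken as its divergence from the consensus, in substitutions per kb, which the sources used here do not state. The median of L1Md_Gf was 50, against 34 for L1Md_T, 13 for L1Md_A and 94.5 for L1Md_F. Copies of 20 to 39 per kb were 93 in number, had a median length of 5164 bp and held 47.5% of the counts. They had 256, 253 and 287 CPM in G4, 482, 481 and 491 in G1, and 388, 443 and 416 in WT. The 63 copies under 20 were short, with a median of 878 bp, and had 69.8, 53.0 and 49.2 CPM in G4, 82.6, 77.5 and 81.3 in G1, and 53.5, 64.1 and 55.4 in WT. In these least diverged copies the G4 and WT libraries overlapped, and G1 was above both. The 120 copies of 80 or more held 3.16% of the counts, with 29.3, 23.4 and 21.5 CPM in G4, 32.4, 30.3 and 19.2 in G1, and 21.6, 32.9 and 20.4 in WT. These divergence classes were compared by their values only.

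Most of the diverged copies lie on chromosome Y. It holds 86 of the 474 copies, 83 of them at 80 or more, with a median length of 4960 bp. Together they had 0.411% of the L1Md_Gf counts, or 6.11, 1.82 and 1.75 CPM in G4, 4.58, 3.05 and 2.61 in G1, and 4.21, 3.20 and 2.999 in WT. All copies of the table on chromosome Y summed to 4093 ± 345 CPM in G4, 1815 ± 115 in G1 and 2526 ± 321 in WT (SD, n = 3 each). Chromosome X held 54 copies and 13.2% of the counts. These had 72.5, 64.5 and 79.2 CPM in G4, 159, 104 and 118 in G1, and 123.5, 152 and 104 in WT. All copies of the table on chromosome X summed to 29343 ± 871 CPM in G4, 37504 ± 650 in G1 and 39506 ± 983 in WT. Without both sex chromosomes, an alternative chosen after the data were seen, L1Md_Gf stood at -0.55 in G4 against WT, still called.

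Chromosome 6 held 29 copies and 11.6% of the counts, and the study describes a truncation of this chromosome in G4 ESCs. The 14 copies between 10 and 80 Mb had 37.1, 21.4 and 20.9 CPM in G4, 123.7, 112 and 109 in G1, and 60.1, 73.4 and 103 in WT. All other TE copies of that segment summed to 7853 ± 21.0 CPM in G4, 15813 ± 136 in G1 and 15566 ± 220 in WT (SD, n = 3 each). The 15 L1Md_Gf copies on the rest of chromosome 6 had 18.1, 9.61 and 8.88 CPM in G4, 20.1, 44.3 and 23.8 in G1, and 14.9, 29.8 and 30.0 in WT. Without chromosome 6 the fall in G4 against WT was 0.51 and that against G1 0.82, and both kept their calls. Copies outside chromosome 6 had 542, 488 and 535 CPM in G4, 909, 891 and 933 in G1, and 673, 789 and 743 in WT.

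Single copies were tested where filterByExpr kept them, that is, where counts were high enough in at least 3 libraries. This left 23 of the 474 L1Md_Gf copies, with 51.2% of the counts, among 13278 copies of all names. A copy could pass through the group where it is high, so these 23 do not stand for the subfamily. Copies named below for their fall rather than their level were chosen as called and without overlap. Their separation is thus part of the choice. In G4 against WT, 8 fell and 0 rose in edgeR's test, where 21.3% of all tested copies fell and 21.3% rose. All 8 fell past a fold of 2, as did 15.1% of all tested copies. Without G4 replicate 1 there was 1 copy called higher, chr4:24193704-24199986, named after its values were seen, with 0, 14.8 and 12.6 CPM in G4, 10.7, 8.91 and 10.8 in G1, and 7.29, 2.97 and 5.50 in WT. It stood at 0.79 over all libraries (adjusted p = 0.350) and at 1.32 without that library (adjusted p = 0.0402). DESeq2's Wald test called 6 lower and 0 higher, and 11 had an unadjusted p under 0.05 in edgeR. In G4 against G1, 11 fell and 0 rose, where 19.2% fell and 19.0% rose of all. Between G1 and WT edgeR called 0 copies, with 4 at an unadjusted p under 0.05, and DESeq2's Wald test called 0, where 2.41% of all tested copies rose and 4.36% fell.

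The most counted copy, chr18:43000001-43004030, is 4030 bp long and lies in an intron of Ppp2r2b, which encodes a regulatory subunit of protein phosphatase 2A, on the strand of the gene. It had 61.6, 43.1 and 52.0 CPM in G4, 80.9, 75.0 and 136 in G1, and 51.4, 61.4 and 101 in WT. G1 replicate 3 and WT replicate 3 were the highest, and the G4 and WT libraries overlapped. It fell in G4 against G1 by 0.90 (SE 0.237, adjusted p = 0.00391) and stood at -0.47 in G4 against WT (adjusted p = 0.128). Its 13 neighbours within 10000 bp summed to 53.1 ± 10.4 CPM in G4, 50.9 ± 27.0 in G1 and 40.8 ± 34.6 in WT (SD, n = 3 each). Leaving it out of the sum gave -0.59 for the subfamily in G4 against WT.

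The next by level was chrX:90775136-90777263, a copy of 2128 bp at 30073 bp from the nearest gene, the pseudogene Gm6977. It had 16.4, 21.9 and 34.1 CPM in G4, 54.4, 39.6 and 36.6 in G1, and 46.5, 73.6 and 63.0 in WT. All G4 libraries lay below the rest. The copy fell in G4 against WT by 1.31 (SE 0.252, adjusted p = 0.000148) and in G4 against G1 by 0.82 (adjusted p = 0.0161). This second call was lost without G1 replicate 1 (-0.67, adjusted p = 0.0822), G4 replicate 1 (-0.62, adjusted p = 0.0894) or G4 replicate 2 (-0.72, adjusted p = 0.0748), and with a looser filter of at least 5 counts in all (-0.75, adjusted p = 0.0854). The 8 other TE copies within 10000 bp summed to 7.87 ± 2.06 CPM in G4, 15.9 ± 5.38 in G1 and 17.1 ± 0.730 in WT.

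A copy of similar length on chromosome 6, chr6:21025180-21027289, lies 11937 bp from Gm23960, a snoRNA. It had 28.5, 12.8 and 11.5 CPM in G4, 78.8, 68.9 and 44.4 in G1, and 30.8, 35.1 and 62.7 in WT. G4 replicate 1 came close to WT replicate 1 without overlap. In edgeR it fell in G4 against WT by 1.33 (SE 0.330, adjusted p = 0.00196) and in G4 against G1 by 1.90 (adjusted p = 3.04e-05). Its 6 neighbours within 10000 bp summed to 4.003 ± 6.17 CPM in G4, 6.77 ± 1.62 in G1 and 6.03 ± 1.03 in WT. It lies in the segment of chromosome 6 whose other TE copies were also lower in G4.

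The same segment holds chr6:59199645-59205081, a copy of 5437 bp in the long class, whose sequence was not examined. It lies 3788 bp from Tigd2, a gene derived from a DNA transposon. It had 3.91, 3.28 and 4.21 CPM in G4, 15.1, 19.7 and 29.6 in G1, and 13.2, 18.99 and 20.3 in WT. Its G4 libraries lay far below all others, and it fell in G4 against WT by 2.04 (SE 0.437, adjusted p = 0.000481) and in G4 against G1 by 2.31 (adjusted p = 0.000119). Its 3 neighbours within 10000 bp summed to 60.4 ± 17.4 CPM in G4, 66.8 ± 2.89 in G1 and 68.6 ± 9.35 in WT.

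On chromosome 14 the longest copy of all, chr14:40546604-40553143 with 6540 bp, had 10.6, 6.10 and 15.9 CPM in G4, 27.3, 25.4 and 28.9 in G1, and 20.5, 25.3 and 25.1 in WT. No G4 library reached the others, and it fell in G4 against WT by 1.07 (SE 0.331, adjusted p = 0.0110), a call lost without G4 replicate 2 (-0.76, adjusted p = 0.0885) and with the looser filter of at least 5 counts in all (-1.04, adjusted p = 0.0737). The nearest gene, the pseudogene Gm5205, lies 4094 bp away, and the 7 neighbours within 10000 bp summed to at most 1.65 CPM in any group mean. A second copy there, chr14:42586107-42587836, is 1730 bp long and lies 904 bp from the pseudogene Gm17204. It had 9.45, 12.4 and 8.99 CPM in G4, 25.8, 21.1 and 18.1 in G1, and 24.8, 35.4 and 18.6 in WT. The copy fell in G4 against WT by 1.29 (SE 0.339, adjusted p = 0.00311). Its 18 neighbours within 10000 bp summed to 11.03 ± 4.01 CPM in G4, 32.8 ± 3.90 in G1 and 27.2 ± 8.49 in WT.

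Among the named copies the largest fall in G4 against WT was that of a rarer copy, chr13:17200521-17204017, which lies in an intron of Sugct, a CoA transferase of glutarate metabolism, on the strand of the gene. It had 1.38, 2.21 and 3.25 CPM in G4, 9.14, 8.34 and 11.5 in G1, and 4.62, 11.2 and 15.7 in WT. Its fall in G4 against WT was 2.16 (SE 0.644, adjusted p = 0.00847), but without WT replicate 3 it stood at -1.81 (adjusted p = 0.0761). A copy of 5261 bp in an intron of the lincRNA B230209E15Rik, chr7:61569861-61575121, had 10.95, 2.80 and 10.2 CPM in G4, 29.4, 40.1 and 33.4 in G1, and 46.5, 5.48 and 15.8 in WT. The WT libraries were spread widely and overlapped G4. The copy fell in G4 against G1 by 2.13 (SE 0.504, adjusted p = 0.00160). Its fall in G4 against WT was 1.52 (adjusted p = 0.0244), and without WT replicate 1 it was 0.45 (adjusted p = 0.529), without G4 replicate 2 it was 1.08 (adjusted p = 0.143), and DESeq2's Wald test gave -1.51 (adjusted p = 0.152). In G1 against WT it stood at 0.61 (adjusted p = 0.474), and without WT replicate 1 at 1.69 (adjusted p = 0.0177). No other TE copy lies within 10000 bp of it.

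The eighth copy that fell in G4 against WT, chr6:93376148-93381894 with 5747 bp, did not meet the rule for naming, since G4 with 13.1, 2.42 and 3.06 CPM overlapped WT with 7.46, 18.1 and 23.1 CPM (log2 fold change -1.44, adjusted p = 0.0492). In contrast to these, chr12:44483088-44489209 was among the 6 copies with the highest level and was called in no comparison. It is 6122 bp long and lies in an intron of Nrcam, a neuronal cell adhesion gene, on the strand of the gene. It had 22.9, 15.8 and 13.7 CPM in G4, 26.3, 28.5 and 26.0 in G1, and 17.1, 12.8 and 14.7 in WT. G4 and WT overlapped (0.24, adjusted p = 0.589), and all G1 libraries lay above both (G1 against WT 0.89, adjusted p = 0.0835).

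**Figure D4:**
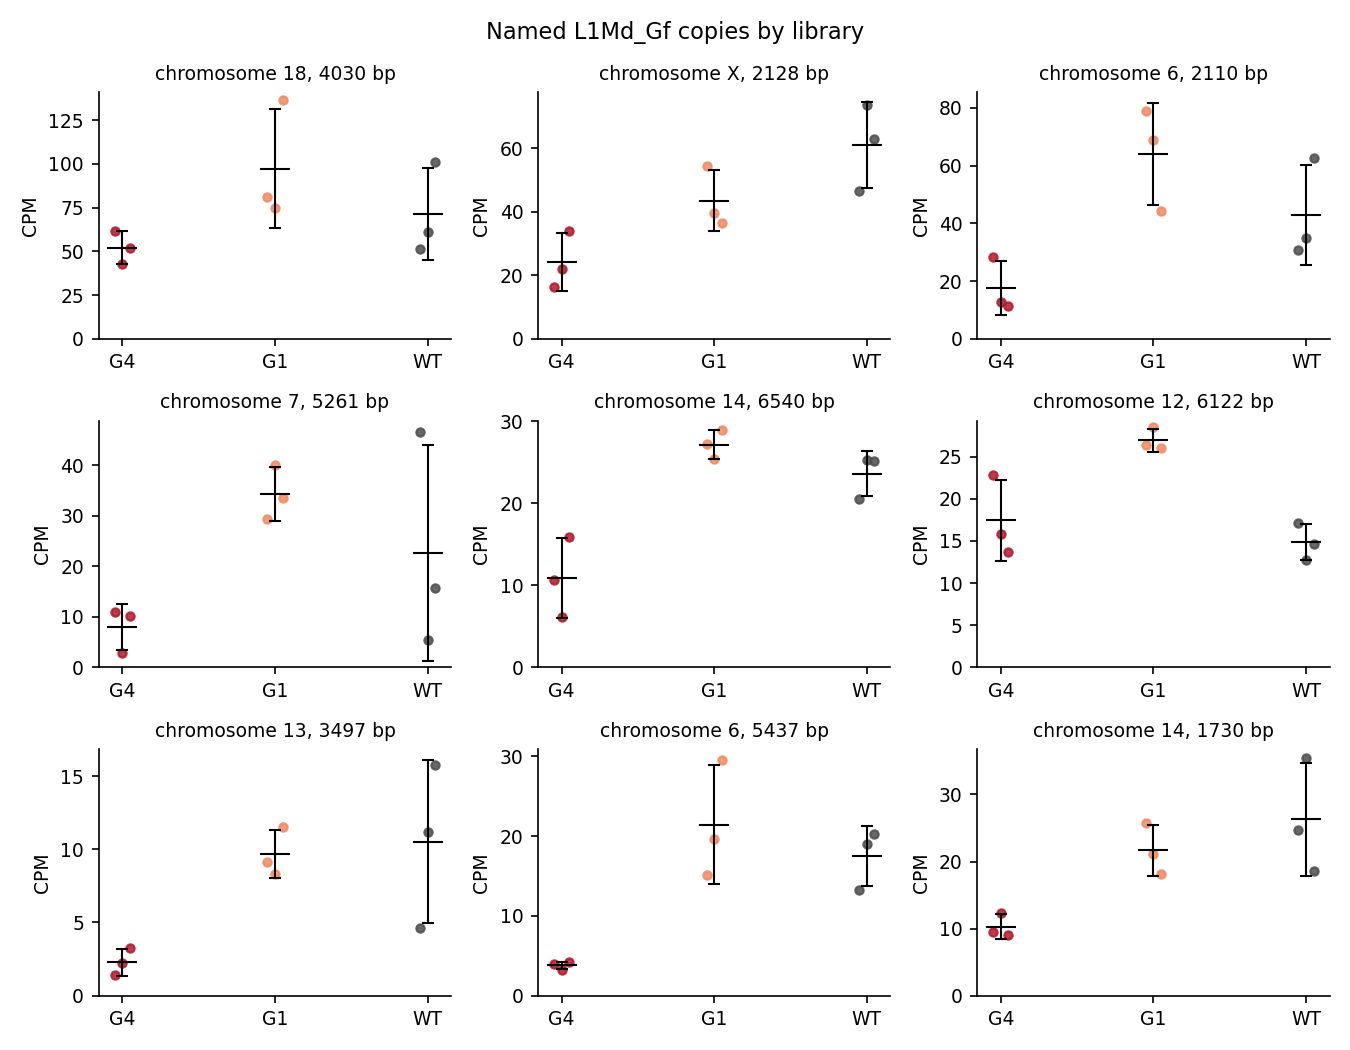
CPM of the 9 named L1Md_Gf copies in each library (points), with mean and SD, each panel with its own axis starting at 0. Panels are titled by chromosome and copy length, and the chromosome 12 copy is the one in which G4 and WT overlap while all G1 libraries lie higher.

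Many L1Md_Gf copies lay end to end with a copy of L1Md_T. An L1Md_T copy on the same strand began or ended within 50 bp of 141 of the 474 copies, 29.7% of all. In all 141 pairs the L1Md_T piece lay at the 3′ side and in 0 at the 5′ side. Whether a pair is 1 insertion was not tested, and the longest pair, with 11392 bp, is longer than a LINE-1 element. The median piece was 1460 bp of L1Md_Gf and 3651 bp of L1Md_T, and the median pair 5858 bp. With adjoining lengths added, 158 L1Md_Gf copies reach 5000 bp, against 98 alone.

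Some of these joints lay at round coordinates. Of the L1Md_Gf copies, 31, or 6.54%, began or ended at a whole multiple of 500000 bp on their chromosome, against 442 of 623916 copies of all names, or 0.0708%. The share was 0.564% for L1Md_T, 1.02% for L1Md_A and 3.38% for L1Md_F. Of the 31 copies, 24 had an adjoining L1Md_T copy, and in 21 of these the names changed at exactly the same base. The copy in Ppp2r2b is one of them. It abuts an L1Md_T copy of 3291 bp, and the pair spans 7321 bp. The 31 copies held 12.7% of the L1Md_Gf counts, with 72.9, 57.3 and 65.9 CPM in G4, 122, 126 and 185 in G1, and 75.6, 101 and 132 in WT.

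The pieces were then read apart. L1Md_Gf pieces with an adjoining L1Md_T had 288, 250 and 255 CPM in G4, 453, 459 and 540 in G1, and 303, 367 and 381 in WT. They fell in G4 against WT by 0.41 (SE 0.09998, adjusted p = 0.00200), where 23.6% of 855 names fell, and rose in G1 against WT by 0.46 (SE 0.0942, adjusted p = 0.00258), where 5.61% rose. In G4 against G1, where 22.8% fell, they fell by 0.87 (adjusted p = 3.66e-07). The 333 L1Md_Gf copies without such a neighbour had 311, 268 and 310 CPM in G4, 598, 588 and 526 in G1, and 445, 526 and 495 in WT. They fell in G4 against WT by 0.72 (SE 0.0857, adjusted p = 6.54e-07) and stood at 0.22 in G1 against WT (SE 0.0804, adjusted p = 0.0766). Whether both kinds differ was compared by their log2 ratio within libraries, which was 0.32 higher in G4 than in WT (exact permutation test, two-sided, p = 0.1, adjusted p = 0.3 over 3 comparisons) and 0.25 higher in G1 than in WT (exact p = 0.2, adjusted p = 0.3).

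The L1Md_T pieces at the 3′ side had 259, 280 and 258 CPM in G4, 518, 574 and 570 in G1, and 363, 389 and 471 in WT. They rose in G1 against WT by 0.44 (SE 0.0871, adjusted p = 0.00218), while all other L1Md_T copies rose by 0.09 (SE 0.0263, adjusted p = 0.0392). The log2 ratio of these pieces to the other L1Md_T copies was 0.36 higher in G1 than in WT, with no overlap between the groups (exact p = 0.1, adjusted p = 0.15), and -0.09 in G4 against WT (exact p = 0.7, adjusted p = 0.7). L1Md_Gf counted together with these pieces, an alternative chosen after the data were seen, stood at -0.60, -0.96 and 0.37 in G4 against WT, G4 against G1 and G1 against WT, all called.

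**Figure D5:**
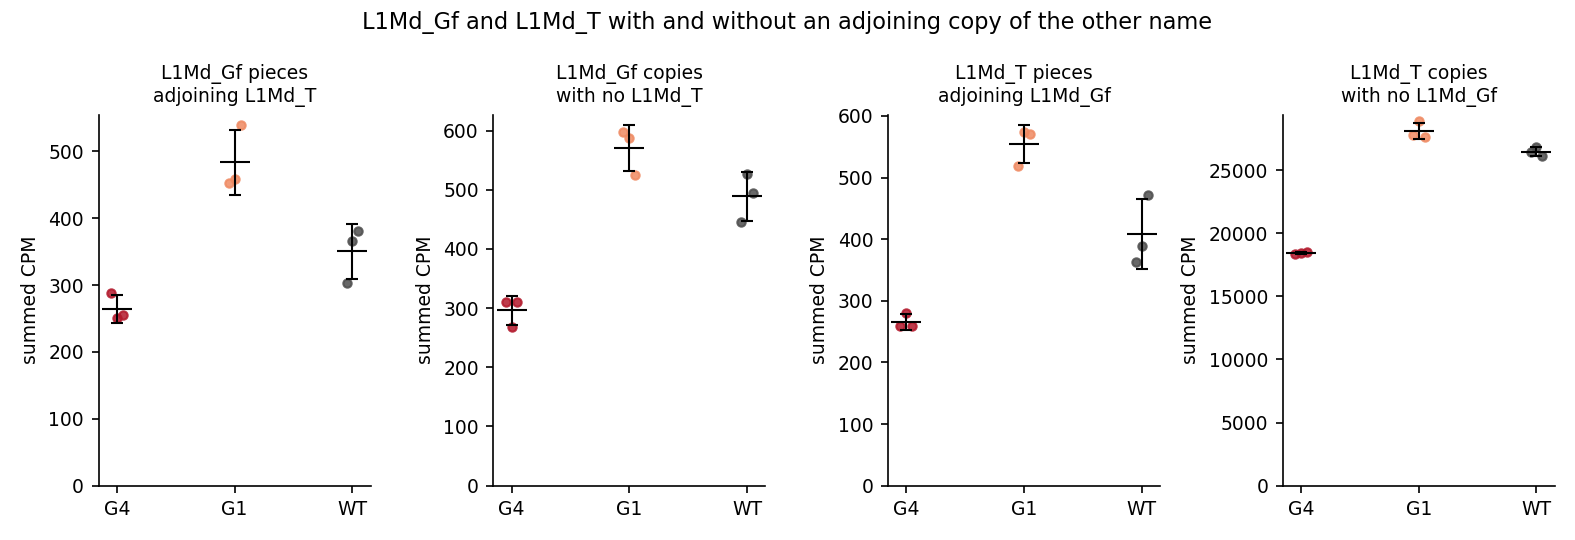
Summed CPM in each library (points), with mean and SD, of L1Md_Gf pieces and L1Md_T pieces of the 141 pairs and of the copies of either name without the other. The L1Md_T pieces of these pairs had 518 to 574 CPM in G1, above all WT libraries with 363 to 471.

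The design asks about short telomeres, so copies near chromosome ends were read too. Only 5 copies lay within 1000000 bp of an end, 1 of them on an unplaced scaffold, and none passed the filter for a test. They had 22.1, 10.97 and 15.4 CPM in G4, 11.4, 11.6 and 8.76 in G1, and 13.6, 6.58 and 2.61 in WT. Most of it came from 1 copy, chr18:90471202-90472370, with 15.8, 8.86 and 7.66 counts in G4, 5.99, 8.59 and 5.66 in G1, and 3.06, 4.88 and 0 in WT. The 131 copies within 20000000 bp of either end had 118 ± 5.03 CPM in G4, 192 ± 15.4 in G1 and 166 ± 24.9 in WT. The 343 farther copies had 442 ± 36.1, 863 ± 22.6 and 673 ± 70.2 CPM in G4, G1 and WT (SD, n = 3 each). Of the 131 copies, 54 lay within that distance of the distal end, the end with the highest coordinates. They had 29.43 ± 11.82 CPM in G4, 43.6 ± 4.634 in G1 and 32.02 ± 10.25 in WT. There the G4 libraries overlapped those of both other groups, so the lower level in G4 was not seen at distal ends alone. These sums were compared by their values only.

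A list of 33 genes that act on LINE-1 or its DNA methylation, not all of them repressors, was read through TE copies in exons, which 25 of them have and 16 had in sufficient number. In G4 against WT 9 rose (Apobec3, Mov10, Trim28, Fam208a, Hells, Samhd1, Rnaseh2a, Tet1 and Tet2) and 2 fell (Pphln1 and Suv39h1), with a median log2 fold change of 0.42, where 24.4% of 4780 genes rose and 23.9% fell with a median of 0.01. Apobec3, a cytidine deaminase that restricts retroelements, had 422, 487 and 547 counts in G4, 91, 86 and 74 in G1, and 69, 113 and 101 in WT (G4 against WT 2.23, SE 0.126, adjusted p = 5.45e-22). Mov10, an RNA helicase that restricts LINE-1 in cultured cells, had 40, 53 and 45 counts in G4, 13, 21 and 12 in G1, and 15, 23 and 19 in WT (1.143, adjusted p = 0.000408). Trim28, the corepressor that recruits H3K9 methylation to retroelements, had 43, 39 and 39 counts in G4, 22, 9 and 18 in G1, and 15, 26 and 17 in WT (0.94, adjusted p = 0.00790).

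Of the HUSH complex, Fam208a, which encodes the TASOR subunit, rose, with 31, 23 and 31 counts in G4, 14, 21 and 7 in G1, and 14, 14 and 17 in WT (0.80, adjusted p = 0.0448). Pphln1, the periphilin subunit, fell, with 203, 293 and 283 counts in G4, 298, 355 and 334 in G1, and 424, 473 and 471 in WT (-0.95, adjusted p = 5.24e-12). Suv39h1, an H3K9 methyltransferase, had 81, 98 and 87 counts in G4, 254, 305 and 239 in G1, and 312, 369 and 456 in WT (-2.22, adjusted p = 2.19e-22). In G4 against G1, 7 of the 16 rose and 2 fell, where 20.6% of all genes rose and 22.3% fell. Between G1 and WT 2 of the 16 rose (Hells, a chromatin remodeller needed for DNA methylation, by 0.49 and Tet1, which oxidises methylated cytosine, by 0.34) and 2 fell (Pphln1 by 0.45 and Suv39h1 by 0.49), where in G1 4.64% of all genes rose and 6.49% fell. The part of any of these genes in the level of L1Md_Gf was not tested.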

How the data were processed

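RNA of ESCs was sequenced in 9 libraries. Per the labels, TruSeq RNA libraries were made from total RNA, and the submitters' processing notes name FastQC 0.11.9, STAR 2.5.3a, featureCounts and mm10. The estimated counts per single TE copy are used as deposited by the authors, and since 55092 copies carry fractions, reads were divided among copies, by a rule not given in the sources used here. A second table of normalized values was not used. Columns named Control were taken as WT.

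Counts were rounded and tested for single copies, for sums per repeat name, for sums per name and length or position class, and for genes as sums over copies in exons (GENCODE M21, at least 0.5 of the copy exonic). On each level filterByExpr removed low features, TMM factors were computed from the totals of the whole table, and edgeR's quasi-likelihood model (edgeR 4.0.16, R 4.3.3) took in the 9 libraries with no replicate block, with two-sided tests and Benjamini-Hochberg adjustment within a level and contrast at 0.05. An SE was obtained by dividing the log2 fold change by the root of the F statistic. CPM of single copies use the factors of the copy table, and CPM of chromosomes, divergence classes and other groups without a test use those of the table of repeat names. Shares and ratios were compared by exact permutation tests (scipy 1.17.1). The pipeline was tested on counts simulated with known changes, for G4 against WT. For single copies it recovered 12.5% of changes at a fold of 1.5, 55% at 2 and 93.4% at 4, and 8.49% of its calls were false. For sums per repeat name it recovered 85%, 95.7% and 100%, and 3.65% of its calls were false. The simulated counts were whole, independent and drawn with a common spread, while L1Md_Gf copies carry divided reads. These rates may therefore not hold for L1Md_Gf copies. A single copy that was not called may still have changed.

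Copies were named as the 6 with the highest mean CPM, at most 8 in each direction for G4 against WT, at most 4 for each other contrast, among called copies with a mean of at least 5 counts in the higher group and no overlap, and called exonic copies. Members and lists were chosen with earlier results of these data known. Alternatives were DESeq2 1.42.0 size factors and its Wald test, library totals, a looser filter (at least 5 counts in all), a replicate block, fits of 2 groups, leaving out each library, a fold over 2, a length limit of 6000 bp, and sums without the most counted copy, without chromosome 6 or of whole-valued copies only. Sums without the 5 most counted copies, without the sex chromosomes, and without or with adjoining L1Md_T copies, and the ratios of adjoining to other copies, were added after the data were seen. Ratios of L1Md_Gf to the other young LINE-1 names were planned for G4 against WT only, and those for G4 against G1 and G1 against WT were additions. Other sequences of L1Md_Gf copies were not analysed here.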

Additional observations from a re-analysis of the deposited data

How the results depend on the processing

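The summed level of L1Md_Gf kept its direction and its call in all 3 comparisons under other scalings, filters, tests, a replicate block and fits of 2 groups, without the most counted copy and without any single library. Leaving out 1 library gave -0.66 to -0.53 in G4 against WT, -0.94 to -0.86 in G4 against G1 and 0.24 to 0.37 in G1 against WT. With the replicate block the values were -0.58, -0.91 and 0.33. Libraries with the same number did not deviate together (correlations -0.0153 to 0.0209), so the numbers were not taken as pairs. The 107 copies with whole values, with 401 counts in all, stood at 0.20 in G4 against WT (adjusted p = 0.531, a turned direction), -0.37 in G4 against G1 (adjusted p = 0.215) and 0.57 in G1 against WT (adjusted p = 0.177). The cause was not tested. These copies were chosen by their counts in these libraries. Copies with no adjoining L1Md_T stood at 0.23 in G1 against WT (adjusted p = 0.0762).

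Counts of called copies moved between 5 and 10 in G4 against WT, the lowest without G4 replicate 2, between 7 and 11 in G4 against G1, and between 0 and 1 in G1 against WT when 1 library was left out. The 10 calls, without G4 replicate 1, were 9 lower and 1 higher. The looser filter, which tests more copies, called 6 in G4 against G1. Copies under 1000 bp stood at -0.35 in G4 against WT with library totals (adjusted p = 0.108) and between -0.59 and -0.36 without 1 library. The long class at a limit of 6000 bp stood at -0.31 in G4 against WT and 0.24 in G1 against WT (adjusted p = 0.267). Intronic copies stood at -0.26 in G4 against WT with library totals and passed the test in G1 against WT with them (0.37, adjusted p = 0.0481). In G1 against WT, leaving out 1 library gave 0.39 to 0.53 for copies under 1000 bp, 0.19 to 0.37 for 1000 to under 5000 bp, 0.25 to 0.37 for 5000 bp or more and 0.26 to 0.41 for intronic copies. The middle class lost its call without WT replicate 1 or G1 replicates 1 or 3, and the long class without WT replicates 1 or 2 or G1 replicates 2 or 3. The short class and the intronic class passed the test without G4 replicate 1. The share of counts in long copies differed by 2.35 percentage points in G4 against WT and 2.98 in G4 against G1 at a limit of 6000 bp. Of 223 alternatives for the named copies, 204 kept the call and 19 lost it, with 0 turned round. At fewer than 5 counts in all, 281 copies were too shallow for a test.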

Other observations

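In WT replicate 2, 233 L1Md_Gf copies had a value above 0 but only 137 had at least 1 count. In the other libraries 154 to 195 copies had a value above 0 and 136 to 183 at least 1 count. How the fractions of reads were spread in that library was not examined further.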
